A study of Mus musculus with 10 samples.

Results

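Signalling by bone morphogenetic proteins (BMPs) and by transforming growth factor beta (TGF-beta) was examined through 35 of its genes in embryonic hindbrain and pharyngeal arch tissue that lacked fibulin-1. The genes were taken by gene symbol from a list of ligands, receptors, Smad transducers, targets and extracellular inhibitors. That list was drawn up with earlier results of these data known. All 35 were present on the array, on 61 of its 22626 probe sets, and each gene was read on its brightest probe set over all 10 arrays. Of the 35, 20 genes were over an expression filter (a log2 signal over 4 on at least 5 of the 10 arrays) and 15 were under it.

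The 5 Fbln1-null arrays came from embryos homozygous for a gene trap insertion in Fbln1, and the 5 wildtype arrays from embryos without it, all at stage E10.5. All embryos came from matings of heterozygous carriers of that 1 gene trap strain. Hindbrain and pharyngeal arches 1 to 4 were dissected together, so each array averages neural tube, neural crest mesenchyme, ectoderm, endoderm, vessels and blood. The series asked how the matrix glycoprotein fibulin-1 affects signalling by fibroblast growth factor 8.

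Ligands of the BMP and TGF-beta families bind complexes of type I and type II serine/threonine kinase receptors. The type I receptor phosphorylates receptor Smads, Smad1 and Smad5 in the BMP branch and Smad2 and Smad3 in the TGF-beta and activin branch, and these enter the nucleus with the common partner Smad4. Id genes are direct BMP targets, while Smad6, Smad7 and Bambi are targets that feed back to inhibit the receptors. In the embryonic head, BMPs pattern the dorsal neural tube and the arch mesenchyme, and TGF-beta is held in the extracellular matrix in a latent form.

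In the processed values, array medians were 3.20 to 3.29 on the log2 scale, and arrays correlated with each other at 0.985 to 0.996 across probe sets. These values were taken after GCRMA and do not measure RNA quality. The targeted gene followed the labels. On the brighter Fbln1 probe set the log2 signal was 2.52 to 2.85 in Fbln1-null arrays, against 3.83 to 5.11 in wildtype arrays (log2 fold change -1.88, exact permutation p = 0.00794, two-sided, which is the lowest value possible with 5 arrays a genotype). Among arch markers, 6 of the 11 on the array were over the filter, led by the mesenchymal homeobox gene Prrx1 at a mean log2 signal of 10.12 in Fbln1-null and 10.12 in wildtype tissue. Among hindbrain markers, 5 of 10 were over it, led by Pax3 at 9.19 in Fbln1-null and 9.18 in wildtype tissue. Of the rhombomere genes, Hoxa2, Hoxb3 and Hoxb4 were over it, at wildtype means of 5.09, 4.31 and 6.76. Hoxb1, Hoxb2 and Egr2 were under it. The 6 leukocyte markers were all under the filter. The median log2 fold change of the 5 hindbrain markers was -0.22, from -0.44 for the neural progenitor gene Sox2 to 0.22 for Hoxb3. Blood was present in both genotypes, with the embryonic globin Hbb-y at 12.73 in Fbln1-null and 12.75 in wildtype tissue. The 3 erythroid markers over the filter had a median log2 fold change of 0.24, from -0.02 for Hbb-y to 0.57 for Hba-x. Hba-x read 8.90 on wildtype replicate 4, against 10.62 to 11.30 on the other wildtype arrays. Of all markers over the filter, 1 had an unadjusted limma p under 0.05, a level met by 12.4% of all probe sets tested. It was Neurog1 of the cranial placodes, with a log2 fold change of -0.52 (limma adjusted p = 0.369). Its means were close to the filter, 3.80 in Fbln1-null and 4.32 in wildtype tissue. Wildtype replicate 4 was the 1 array with a high Xist signal, and wildtype replicates 1 and 2 resembled each other in several genes below. The log2 difference between 3′ and 5′ actin control probe sets was 2.19 to 2.85 in Fbln1-null arrays and 1.9997 to 2.38 in wildtype arrays.

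No gene of the pathway passed the test between genotypes. Among these 20 genes, 0 had a limma adjusted p under 0.05, where 0.0204% of the 9801 probe sets tested did. The closest was Smad4, lower in every Fbln1-null array than in any wildtype array. At an unadjusted limma p under 0.05 stood 4 of the 20 genes, Smad4 and Id3 with lower and Acvr2a and Ltbp1 with higher means in Fbln1-null tissue, against 12.4% of all probe sets tested. By direction that is 2 of 20 higher, against 3.84%, and 2 of 20 lower, against 8.56%. The median log2 fold change was -0.05 over these 20 genes and -0.04 over the 5910 genes measured over the filter. Without Fbln1-null replicate 5 or 7 the count of 4 was 2, and with the actin probe difference as a covariate it was 1, Smad4. The number over all probe sets also moved, from 1215 in the main fit to 923 to 1269 with 1 array left out. It is not given here for the actin covariate. In bulk tissue, fewer cells of a type and less RNA per cell cannot be told apart.

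**Figure D1:**
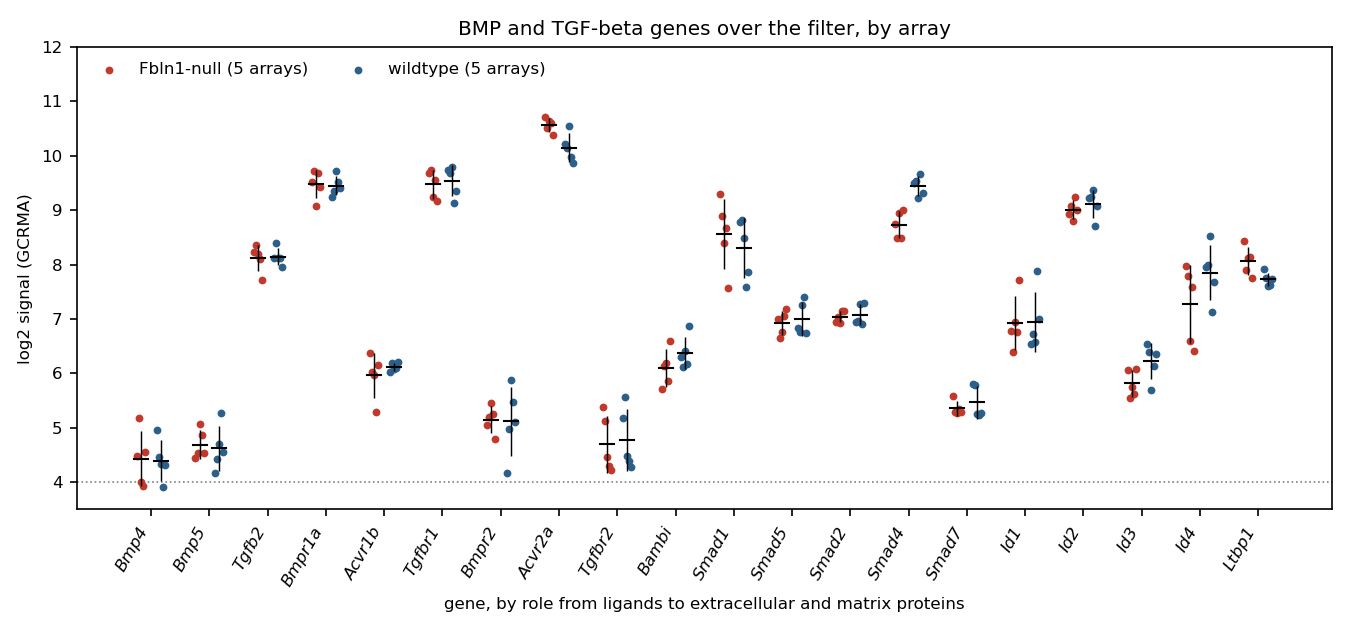
Log2 signal (vertical axis) of the 20 genes over the filter on each array, with Fbln1-null arrays in red to the left of wildtype arrays in blue; black bars are means and vertical lines ± 1 SD (n = 5). The 5 Fbln1-null values of Smad4 sit at 8.48 to 9.003, all under the wildtype values of 9.22 to 9.66, while the genotypes overlap for the other 19 genes.

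Smad4, the partner shared by both branches, had log2 signals of 8.74, 8.48, 8.96, 8.49 and 9.003 in Fbln1-null replicates 3, 4, 5, 7 and 8, against 9.51, 9.54, 9.22, 9.66 and 9.31 in wildtype replicates 1 to 5. The genotypes did not overlap, as was true of 1 of the 20 genes and of 2.77% of all probe sets tested, 1.95% in this direction. That count became 2 when wildtype replicate 1 was left out and 3 when wildtype replicate 3 was. Leaving out an array makes non-overlap easier for every probe set. The share over all probe sets was not counted in those settings, so 2.77% is no measure for them. The means were 8.73 ± 0.25 in Fbln1-null and 9.45 ± 0.18 in wildtype tissue (SD, n = 5 each), a log2 fold change of -0.71 (SE 0.14, 95% interval -1.03 to -0.40) or 1.64-fold. The limma adjusted p was 0.0822, so the gene stood rank 37 among 9801 probe sets and did not pass. It passed when the filter was set at log2 6 (adjusted p = 0.0463) and with array weights (adjusted p = 0.0388), and over all 23 alternatives its log2 fold change was -0.78 to -0.41. In the fits that left out 1 array the adjusted p was 0.0859 to 0.204.

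The other Smad4 probe sets had log2 fold changes nearer to 0. The second in brightness read 8.27, 8.24, 7.52, 7.72 and 7.74 in Fbln1-null arrays and 8.63, 8.59, 8.35, 8.07 and 8.00 in wildtype arrays, with overlap between the genotypes (log2 fold change -0.43, SE 0.18, limma adjusted p = 0.370). The third had a log2 fold change of -0.08 (95% interval -0.47 to 0.30). The mean of the 3 probe sets had a log2 fold change of -0.41 (limma adjusted p = 0.260).

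Receptor Smads on their brightest probe sets had intervals that spanned 0. Smad1, which carries BMP signals, read 9.30, 8.89, 8.40, 8.67 and 7.57 in Fbln1-null arrays, against 8.79, 8.82, 8.49, 7.60 and 7.87 in wildtype arrays. Fbln1-null replicate 8 and wildtype replicates 4 and 5 were low, and the genotypes overlapped (log2 fold change 0.25, SE 0.32). Smad5, of the same branch, had a log2 fold change of -0.07 (95% interval -0.43 to 0.29), and Smad2, of the TGF-beta and activin branch, -0.04 (95% interval -0.30 to 0.23). Smad7, the inhibitory Smad of both branches, read 5.59, 5.29, 5.28, 5.34 and 5.28 in Fbln1-null arrays and 5.80, 5.80, 5.26, 5.23 and 5.26 in wildtype arrays. High values were confined to Fbln1-null replicate 3 and wildtype replicates 1 and 2, and the log2 fold change was -0.11 (SE 0.15).

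**Figure D2:**
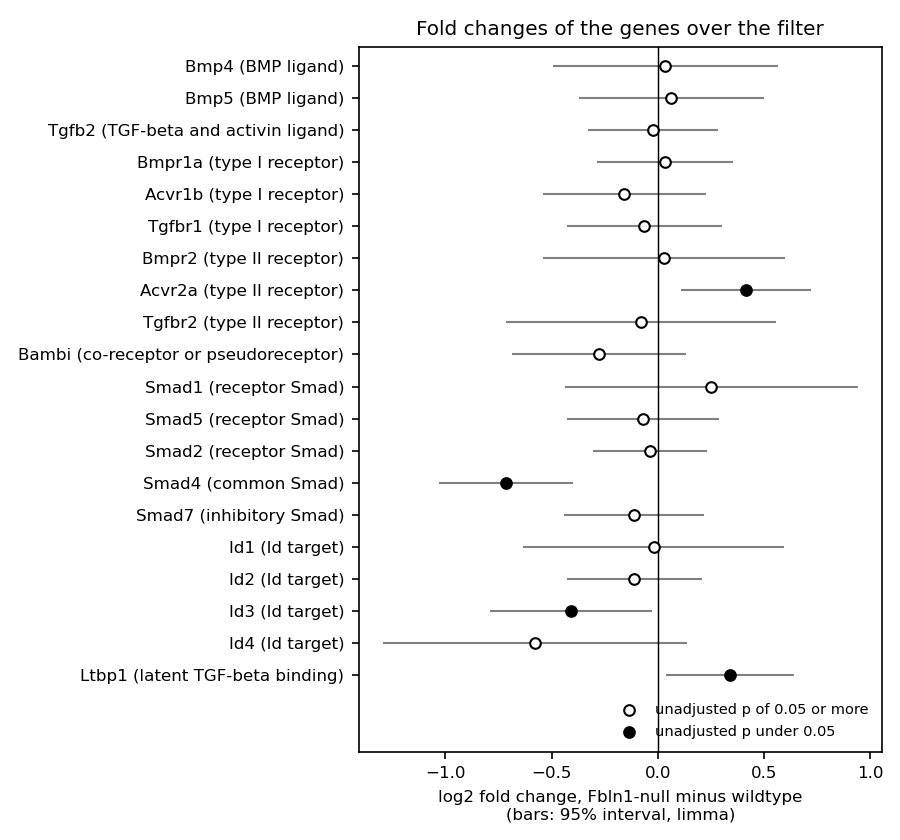
Log2 fold change, Fbln1-null minus wildtype (horizontal axis), for the 20 genes over the filter in order of role, with 95% intervals from limma as bars. Filled points mark the 4 genes with an unadjusted p under 0.05, of which Smad4 at -0.71 lies farthest from 0.

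Receptors were measured in both branches. Acvr2a, a type II receptor for activins and some BMPs, read 10.71, 10.502, 10.63, 10.60 and 10.38 in Fbln1-null arrays, against 10.21, 10.14, 10.55, 9.98 and 9.87 in wildtype arrays. Only wildtype replicate 3 reached into the Fbln1-null range. The log2 fold change was 0.41 (SE 0.14, 95% interval 0.11 to 0.72, limma adjusted p = 0.294), and 0.33 with the actin probe difference in the fit (unadjusted p = 0.0676).

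A second Acvr2a probe set went the other way. It read 5.25, 5.24, 3.93, 4.81 and 3.56 in Fbln1-null arrays, against 5.40, 5.37, 5.53, 5.15 and 4.98 in wildtype arrays (log2 fold change -0.73, SE 0.30, limma adjusted p = 0.357). Fbln1-null replicates 5 and 8 were lowest. The mean of both probe sets had a log2 fold change of -0.16, so the direction for Acvr2a depends on the probe set read.

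The remaining receptors had 95% intervals that spanned 0 on their brightest probe sets. Tgfbr1, the type I receptor for TGF-beta, had 9.68, 9.75, 9.24, 9.55 and 9.16 in Fbln1-null arrays and 9.74, 9.68, 9.79, 9.14 and 9.35 in wildtype arrays (log2 fold change -0.06, 95% interval -0.43 to 0.30). Bmpr1a, a type I receptor for BMPs, had a log2 fold change of 0.03 (95% interval -0.29 to 0.35) and Bmpr2, the type II receptor for BMPs, 0.03 (95% interval -0.54 to 0.60). Acvr1b, the activin type I receptor, read 6.37, 6.03, 5.96, 5.29 and 6.16 in Fbln1-null arrays and 6.03, 6.19, 6.08, 6.09 and 6.20 in wildtype arrays (log2 fold change -0.16, SE 0.18), with Fbln1-null replicate 7 low. Tgfbr2, the type II receptor for TGF-beta, had a log2 fold change of -0.08 (95% interval -0.71 to 0.55). Its higher values, 5.12 to 5.56, came from Fbln1-null replicates 3 and 4 and wildtype replicates 1 and 2, against 4.22 to 4.48 on the other arrays. Bambi, a receptor-like protein without a kinase that dampens signalling, read 5.71, 6.14, 6.19, 5.85 and 6.60 in Fbln1-null arrays, against 6.29, 6.13, 6.41, 6.18 and 6.86 in wildtype arrays (log2 fold change -0.28, SE 0.19, limma adjusted p = 0.587).

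Fold changes were also set side by side between probe sets of the same gene. Beyond the brightest, 11 probe sets of 7 genes were over the filter, of which 7 shared the direction of the brightest and 4 did not. A test of the difference between probe sets within each array was chosen after these values were seen. For Acvr2a the dimmer probe set lay below the brighter one by more in all 5 Fbln1-null arrays than in any wildtype array, a difference of -1.14 on the log2 scale (two-sided exact permutation p = 0.00794, adjusted p = 0.0873 over the 11). For Smad5, a dimmer probe set had a log2 fold change of -0.74 (SE 0.27), against -0.07 on the brightest probe set (difference -0.67, exact permutation p = 0.0397, adjusted p = 0.109). For Bmpr1a, 1 probe set had -0.67 (SE 0.30), against 0.03 to 0.07 on its 3 other probe sets over the filter (difference from the brightest -0.71, exact permutation p = 0.0397, adjusted p = 0.109). The third Smad4 probe set differed from the brightest by 0.63 (exact permutation p = 0.0159, adjusted p = 0.0873). None of the 11 passed adjusted over them. The actin probe difference, which also compares probe sets of 1 transcript, was higher in 3 of 5 Fbln1-null arrays than in any wildtype array, and its part in these differences was not tested.

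**Figure D3:**
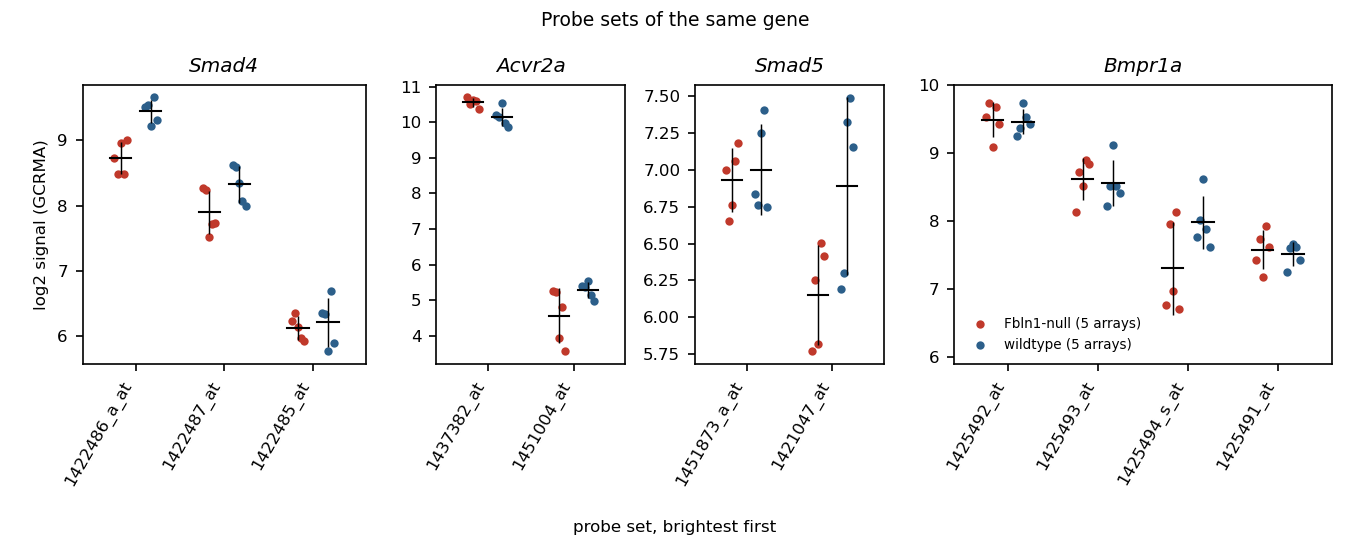
Log2 signal (vertical axis, a separate range in each panel) of the probe sets over the filter of Smad4, Acvr2a, Smad5 and Bmpr1a, brightest first, with Fbln1-null arrays in red to the left of wildtype arrays in blue, means as black bars and ± 1 SD as lines (n = 5). The Acvr2a probe sets differ in direction, with log2 fold changes of 0.41 and -0.73.

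The Id genes encode inhibitors of basic helix-loop-helix transcription factors, and all 4 were over the filter with lower means in Fbln1-null tissue, where 56.9% of all probe sets tested had a lower mean. Id3 read 6.07, 5.55, 5.76, 5.62 and 6.09 in Fbln1-null arrays, against 6.55, 6.39, 5.70, 6.13 and 6.35 in wildtype arrays. Wildtype replicate 3 lay among the Fbln1-null values and the other wildtype arrays above them. The log2 fold change was -0.41 (SE 0.18, 95% interval -0.79 to -0.03, limma adjusted p = 0.370), and -0.24 without wildtype replicates 1 and 2 (unadjusted p = 0.236). Id4 read 7.97, 7.80, 6.59, 7.59 and 6.41 in Fbln1-null arrays and 7.96, 7.99, 8.52, 7.13 and 7.67 in wildtype arrays (log2 fold change -0.58, SE 0.33, limma adjusted p = 0.514). Fbln1-null replicates 5 and 8 gave the low end. Id1 had a log2 fold change of -0.02 (95% interval -0.63 to 0.59). Id2 read 8.93, 9.08, 8.79, 9.25 and 9.0003 in Fbln1-null arrays and 9.22, 9.25, 9.37, 8.70 and 9.07 in wildtype arrays, with the genotypes overlapping (log2 fold change -0.11, 95% interval -0.43 to 0.21). A second Id2 probe set had 0.32 (SE 0.20), so the direction of Id2 also depends on the probe set.

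The stretch of 250 bases before the start site is shown for Id2, Id3 and Id4, the Id genes matched in the RefSeq table of build GRCm38.p6. Id1 had no entry there, and the targets Smad7 and Bambi are not shown. The Id genes were taken as direct BMP targets, and also because Id2 and Id4 differ from Id3 in the sites they hold. That difference was therefore part of the choice. Capitals mark GGCGCC, a palindrome known from BMP-responsive elements, and CAGAC or its reverse complement GTCTG, the Smad-binding element, searched on both strands. The windows are chr12:25096093-25096342 on the minus strand for Id2, chr4:136143572-136143821 on the plus strand for Id3 and chr13:48260866-48261115 on the plus strand for Id4, each written 5′ to 3′.
Id2: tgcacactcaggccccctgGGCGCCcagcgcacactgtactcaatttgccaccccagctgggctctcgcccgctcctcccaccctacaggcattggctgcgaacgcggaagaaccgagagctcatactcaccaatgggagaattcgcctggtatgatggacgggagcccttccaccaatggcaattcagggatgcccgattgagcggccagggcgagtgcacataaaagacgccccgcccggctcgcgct
Id3: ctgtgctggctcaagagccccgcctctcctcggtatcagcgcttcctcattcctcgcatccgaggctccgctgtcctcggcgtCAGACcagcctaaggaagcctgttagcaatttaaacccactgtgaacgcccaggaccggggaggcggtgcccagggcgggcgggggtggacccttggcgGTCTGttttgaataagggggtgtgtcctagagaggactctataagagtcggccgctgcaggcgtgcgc
Id4: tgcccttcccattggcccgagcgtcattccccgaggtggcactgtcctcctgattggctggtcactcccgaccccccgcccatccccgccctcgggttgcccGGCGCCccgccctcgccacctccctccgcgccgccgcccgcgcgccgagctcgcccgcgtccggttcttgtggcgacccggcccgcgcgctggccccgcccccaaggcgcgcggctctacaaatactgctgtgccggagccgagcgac
Id2 and Id4 each hold 1 GGCGCC and no Smad-binding element in this window, and Id3 holds 2 Smad-binding elements and no GGCGCC. Of the 32851 promoter windows of this length listed by RefSeq, 9.6% held GGCGCC and 42.2% held the Smad-binding element. By gene, with at least 1 window holding the motif, 8 of the 24 pathway genes with an entry held GGCGCC, against 10.8% of 27025 genes, and 11 of the 24 held the Smad-binding element, against 45.8%. The other pathway genes had no entry to search. The 27025 genes were not matched to the pathway genes for base composition or expression, so the shares are description only. A match of letters describes the sequence and is not a binding site.

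The targets were also compared with each other across arrays. Taking each value as a deviation from its genotype mean, Id1 and Id4 ran in opposite directions over the 10 arrays (Pearson r = -0.82, permutation p = 0.00205, adjusted p = 0.0307 over the 15 pairs of Id1, Id2, Id3, Id4, Smad7 and Bambi; Spearman rho = -0.68, permutation p = 0.0338, adjusted p = 0.256). Id1 was highest on Fbln1-null replicate 8, at 7.73, and wildtype replicate 4, at 7.88, against 6.39 to 7.01 on the other arrays, and without both r was -0.64 (exact permutation p = 0.0865). The call rests on these arrays and on most of the others. The permutations did not allow for the removal of genotype means, so the p-values of these pairs can be too low. Within genotypes r was -0.80 over Fbln1-null and -0.89 over wildtype arrays. With 1 array left out in turn, 0 of the 15 pairs passed without Fbln1-null replicate 4, 5, 7 or 8 or wildtype replicate 2, 3, 4 or 5, and 2 passed without Fbln1-null replicate 3. Id1 and Id2 had r = -0.69 (permutation p = 0.0285, adjusted p = 0.177) and Id2 and Id4 had r = 0.66 (permutation p = 0.0354, adjusted p = 0.177). Hindbrain markers also varied among these arrays. Of 12 listed, 10 were on the array and 5 over the filter, and their mean log2 deviation was -0.44 to 0.15 in Fbln1-null arrays, lowest in replicate 8, and -0.25 to 0.37 in wildtype arrays, lowest in replicates 5 and 4 and highest in replicates 1 and 2. Their part in the Id values was not tested.

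**Figure D4:**
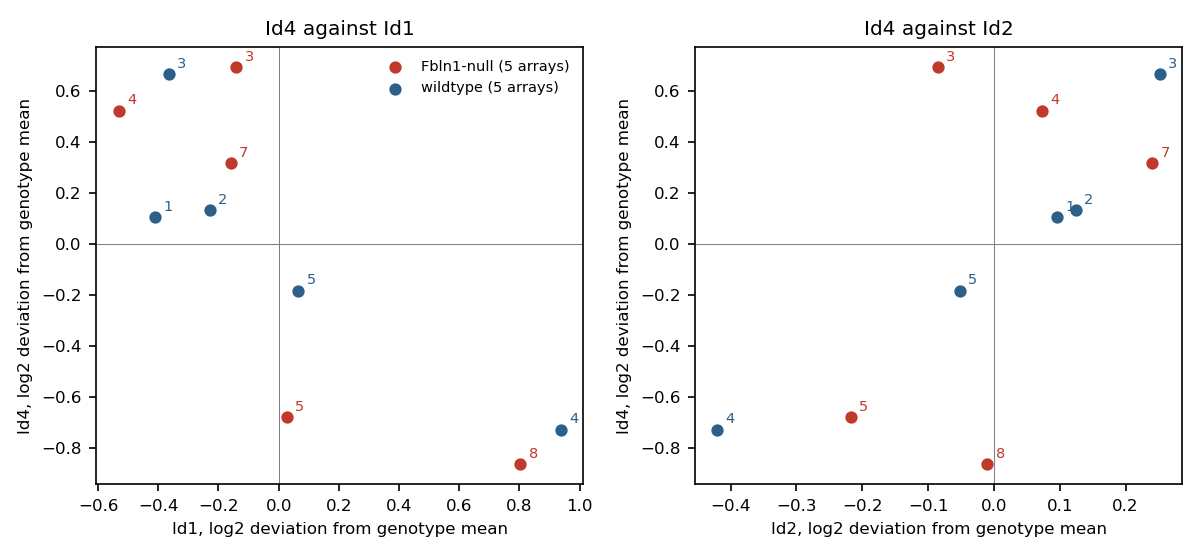
Id4 against Id1 (left) and against Id2 (right), each as the log2 deviation from its genotype mean, with Fbln1-null arrays in red, wildtype arrays in blue and replicate numbers beside the points. Fbln1-null replicate 8 and wildtype replicate 4 lie at high Id1 and low Id4 (r = -0.82 over 10 arrays, -0.64 without these arrays).

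Ligands and proteins of the extracellular space were for the most part dim. Ltbp1, which binds latent TGF-beta and anchors it to matrix fibrils, read 8.43, 7.91, 8.12, 8.13 and 7.76 in Fbln1-null arrays, against 7.91, 7.75, 7.62, 7.63 and 7.74 in wildtype arrays. Wildtype replicate 1 overlapped the Fbln1-null values. The log2 fold change was 0.34 (SE 0.14, 95% interval 0.04 to 0.64, limma adjusted p = 0.343), and 0.22 with the actin probe difference in the fit (unadjusted p = 0.177). Tgfb2, the ligand of the TGF-beta branch over the filter, read 8.23, 8.36, 8.19, 8.10 and 7.72 in Fbln1-null arrays and 8.12, 8.39, 8.13, 8.13 and 7.95 in wildtype arrays (log2 fold change -0.02, 95% interval -0.33 to 0.28). Bmp5 read 4.45, 4.53, 5.06, 4.87 and 4.54 in Fbln1-null arrays, against 4.17, 4.42, 4.71, 5.28 and 4.56 in wildtype arrays (log2 fold change 0.06, SE 0.20). Bmp4, which patterns the distal arches, had a log2 fold change of 0.03 (95% interval -0.49 to 0.56) at values of 3.92 to 5.18, close to the filter.

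The 15 genes under the filter gave bounds rather than levels. They were the ligands Bmp2, Bmp7, Tgfb1, Tgfb3 and Inhba, the receptors Acvr1, Acvr2b, Bmpr1b and Tgfbr3, the Smads Smad3 and Smad6, and all 4 extracellular BMP and activin inhibitors listed, Nog, Chrd, Grem1 and Fst. Smad3, Smad6 and Tgfb1 had means of 2.27 to 2.31 in both genotypes, at the bottom of the GCRMA scale. Fitted among all 22626 probe sets, 0 of the 15 passed, against 0.00442% of all probe sets, and 2 had an unadjusted limma p under 0.05, against 7.11% of all probe sets. Both had lower means in Fbln1-null tissue, against 4.68%. These were Bmp2, at 2.96 ± 0.05 in Fbln1-null and 3.20 ± 0.18 in wildtype tissue (SD, n = 5 each, limma adjusted p = 0.593), and Acvr2b, at 2.81 ± 0.18 in Fbln1-null and 3.15 ± 0.26 in wildtype tissue (SD, n = 5 each, limma adjusted p = 0.650). For both genes 0 of the 10 arrays exceeded log2 4. Tgfbr3, a co-receptor, read 2.26 to 2.43 in Fbln1-null arrays and 2.26 in every wildtype array to 2 decimals, and every Fbln1-null value lay above the wildtype values, as on 1.83% of all probe sets, 0.866% in this direction, but the means of 2.32 in Fbln1-null and 2.26 in wildtype tissue were both near the floor. Acvr1, a BMP type I receptor, was nearest to the filter, at 3.92 ± 0.28 in Fbln1-null and 3.86 ± 0.05 in wildtype tissue (SD, n = 5 each).

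A further 139 genes of the pathway were listed by role, of which 111 were on the array by symbol and 49 over the filter. Of the 49, 0 passed the test, 1 had a higher and 4 a lower mean at an unadjusted limma p under 0.05, and the total of 5 is 10.2%, against 12.4% of all probe sets. Pmepa1, a TGF-beta-induced membrane protein that sequesters receptor Smads, read 4.18, 4.16, 4.05, 3.80 and 2.95 in Fbln1-null arrays, against 5.06, 4.69, 4.71, 4.98 and 4.61 in wildtype arrays. It was the 1 gene of the 49 without overlap (log2 fold change -0.98, SE 0.22, limma adjusted p = 0.116). Non-overlap in 1 of 49 is 2.04%, against 2.77% of all probe sets. Of its Fbln1-null values, 3 lay just over log2 4 and 2 below it. Sostdc1, a secreted antagonist of BMP and Wnt ligands, read 5.67, 6.02, 5.40, 5.76 and 5.48 in Fbln1-null arrays and 5.26, 5.20, 5.52, 5.12 and 5.10 in wildtype arrays (log2 fold change 0.43, SE 0.14, limma adjusted p = 0.279). Wildtype replicate 3 was the 1 wildtype array among the Fbln1-null values of Sostdc1. Nedd4l, a ubiquitin ligase that acts on Smads, read 4.07, 4.44, 4.10, 4.12 and 4.27 in Fbln1-null arrays and 4.75, 4.47, 4.50, 4.42 and 4.47 in wildtype arrays (log2 fold change -0.32, SE 0.12, limma adjusted p = 0.318). Tab2, an adaptor of the kinase Tak1, read 8.05, 7.97, 7.44, 7.61 and 7.36 in Fbln1-null arrays and 8.01, 8.33, 7.93, 8.01 and 7.93 in wildtype arrays (log2 fold change -0.36, SE 0.16, limma adjusted p = 0.384). Tagln, a cytoskeletal gene induced by TGF-beta, read 6.36, 5.39, 6.14, 6.32 and 6.32 in Fbln1-null arrays and 6.12, 6.63, 6.57, 6.56 and 6.91 in wildtype arrays (log2 fold change -0.45, SE 0.20, limma adjusted p = 0.389). The genotypes overlapped for these 3 genes, and Fbln1-null replicate 4 gave the low value of Tagln. By role, 12 of 17 genes of Smad turnover and receptor adaptors had lower means (median log2 fold change -0.12), as did 2 of 10 other Smads and Smad cofactors (median 0.17), against 56.9% of all probe sets, and 0 genes of either role passed the test. Without wildtype replicate 1 or 2 the count of 5 was 3. Over all probe sets, the number at that level was 1215 in the main fit and 923 to 1269 with 1 array left out.

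**Figure D5:**
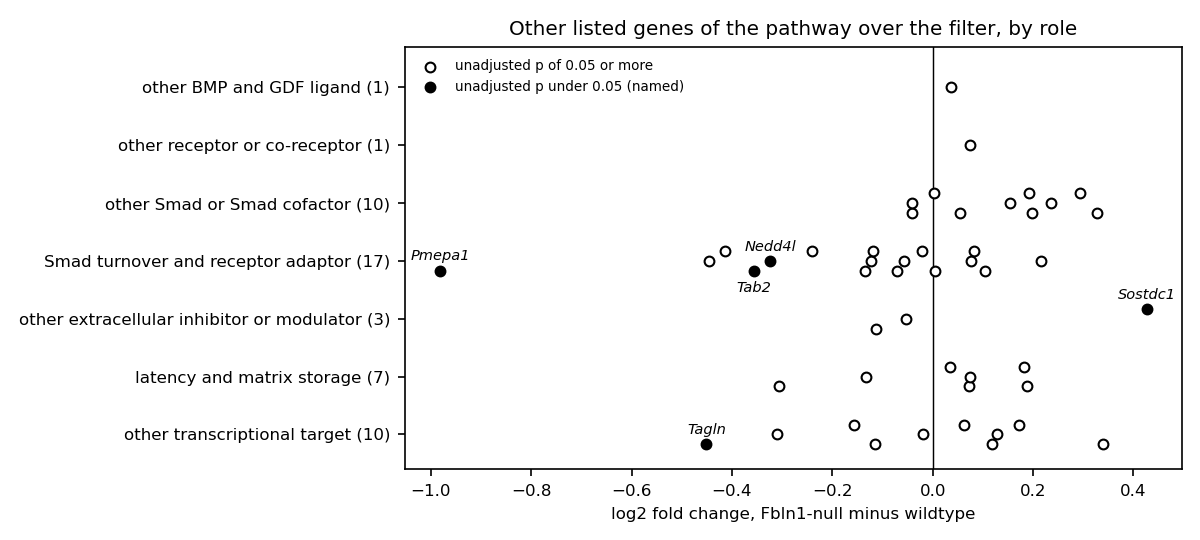
Log2 fold change, Fbln1-null minus wildtype (horizontal axis), of the 49 further pathway genes over the filter, 1 point per gene, by role with the number of genes in brackets. Filled and named points have an unadjusted p under 0.05, with Pmepa1 at -0.98 and Sostdc1 at 0.43 at the 2 ends.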

How the data were processed

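RNA of each embryo's tissue was amplified from its 3′ end into biotinylated cRNA for 1-colour Affymetrix arrays, per the labels' protocols. The deposited values are log2 signals that the authors computed by GCRMA, as the submitters' processing notes state, with its version not given in the sources used here. GCRMA gives 1 value per probe set. Dim probe sets lay near a floor (lowest value 2.22), where fold changes can be understated. The table held 22690 probe sets. Controls (64) were dropped. Of the other 22626, the platform annotation pairs 20380 with a single symbol, 691 with several and 1555 with none, and only probe sets with a single symbol were named.

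Probe sets over log2 4 on at least 5 of 10 arrays (9801) were compared with limma 3.58.1 in R 4.3.3, genotype alone, two-sided, with Benjamini-Hochberg adjustment over all of them and a threshold of 0.05. Single values were compared by exact permutation over arrays, and correlations by 100000 permutations. The latter shuffled deviations from the genotype means over all arrays, across genotypes. Fits were tested on simulated data. The p-values are set against the spread between these embryos, taken as independent. Littermates are not identified, so shared litters could not be allowed for. Genes and lists were chosen with earlier results of these data known. Per-array values are given for genes over the filter with an unadjusted p under 0.05, without overlap, among the 10 smallest p, or brightest in their role, and for further pathway genes with an unadjusted p under 0.05 (at most 8 in each direction). Bmpr1a, Smad5 and Id2 probe sets, Tgfbr2, Bmp2, Acvr2b, Tgfbr3 and Acvr1 were described after their values were seen. Replicate numbers 3, 4 and 5 occur in both genotypes, but same-numbered arrays deviated together at r of -0.34 to 0.16, so they were not taken as pairs. Promoter windows came from RefSeq.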

Additional observations from a re-analysis of the deposited data

Results flagged for a closer look

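Smad7 on Fbln1-null replicate 3 lay apart from its group, at a log2 signal of 5.59 against 5.28 to 5.34 on the other 4 Fbln1-null arrays. It was the 1 such array in 40 groups of 5 examined, where chance flags about 1 group in 20. Wildtype replicates 1 and 2 read 5.80 for the same gene.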

How the results depend on the processing

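The number of arrays and the low signal of 15 genes limit what could be seen. The count of pathway genes past an adjusted p of 0.05, 0 as reported, was 1 (Smad4) with a log2 6 filter, with array weights or at an adjusted p of 0.1. Over all probe sets the number rose from 2 to 34 with that filter or those weights. Their number at an adjusted p of 0.1 is not given here. The count at an unadjusted p under 0.05, 4 as reported, was 1 with the actin probe covariate and 2 to 5 with 1 array left out. Over all probe sets that number was 1215 as reported and 923 to 1269 with 1 array left out. The count without overlap was 2 of 35 with no filter, against 1.83% of all probe sets. It was 1 to 3 with 1 array left out, where the share over all probe sets was not counted. The count of further pathway genes, 5 as reported, was 3 with a log2 6 filter, 8 with the replicate block and 3 to 7 with 1 array left out. The numbers over all probe sets at an unadjusted p under 0.05 with that filter or block are not given here. The correlated pairs were 0 to 2 with 1 array left out. The replicate block uses numbers that did not pair the arrays, gave Smad4 a log2 fold change of -0.67 and called 0 probe sets. Over all probe sets the number past the threshold, 2 as reported, was 34 with a log2 6 filter or array weights. It was 8 with a trended robust variance, 12 with a mean over probe sets, 0 to 7 with 1 array left out and 1 with no filter. It was 0 with the sex or actin covariate or without wildtype replicates 1 and 2. The sex covariate marked arrays with high Xist, wildtype replicate 4 alone, so its fold changes equalled those without that array. Lower means made up 69.1% of those at an unadjusted p under 0.05, but 53.3% after quantile normalization and 50.8% with arrays centred on their medians. Log2 fold changes turned for Tgfb2 (0.0030 with quantile normalization, 0.022 with centred arrays, 0.19 with the block, 0.045 with a mean over probe sets, 0.051 without wildtype replicates 1 and 2, 0.20 on its second probe set, -0.085 to 0.076 with 1 array left out), Bmp5 (-0.17 with the block, -0.16 without wildtype replicates 1 and 2, -0.052 to 0.23 with 1 array left out), Smad7 (0.14 and 0.11 in the same 2 fits), Tgfbr1 (0.13 and 0.049, and -0.16 to 0.014 with 1 array left out), Smad1 (0.25 as reported, -0.11 with the actin covariate, 0.87 with the block at an adjusted p of 0.245, 0.58 without wildtype replicates 1 and 2, 0.069 to 0.50 with 1 array left out), Acvr2a (-0.16 with a mean over probe sets, -0.73 on its second), Id2 (0.10 and 0.32 likewise) and Acvr1b (-0.26 to 0.012 with 1 array left out). The causes were not tested. Reading second probe sets was chosen after the data were seen.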
